A study of Rattus norvegicus with 8 samples.

Results

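Hepatocyte lineage transcription factors were followed in perfused rat liver through 9 genes, namely Hnf4a, Foxa1, Foxa2, Foxa3, Cebpa, Nr5a2, Onecut1, Prox1 and Nr1i3. They were chosen by name from 14506 genes measured on the arrays, and each had exactly 1 probe set with no other gene symbol. Livers of male Wistar rats aged 6 to 10 weeks had been perfused, that is, kept alive outside the body by a buffer pumped through their vessels. The series held 4 arrays of livers on a normoosmotic buffer (305 mosm/L) and 4 on a hypoosmotic buffer (225 mosm/L), all at 120 min. Cells swell in a buffer of low osmolarity because water enters them. Whether each array stands for its own animal is not stated in the labels, so the p-values speak only of the spread between these arrays, part of which may be technical.

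Liver-enriched transcription factors act as a network in which the members bind each other's regulatory regions as well as the genes of secreted proteins, metabolism and detoxification. Foxa factors (forkhead proteins) open chromatin in early liver development, Hnf4a is a nuclear receptor that maintains the hepatocyte state, and Cebpa is a leucine zipper factor that promotes metabolic genes. Onecut1 (Hnf6) acts in hepatocytes and in bile duct development, Prox1 is a homeobox factor of hepatoblast growth, and Nr5a2 and Nr1i3 (CAR) are nuclear receptors of bile acid and of drug metabolism.

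Of the members, Foxa2 rose in hypoosmotic livers and was the 1 member of 9 that passed the test. Onecut1 had the most negative change and did not pass. Cebpa and Prox1 had positive changes with 95% intervals above 0, and they did not pass either. For Hnf4a, Nr5a2, Nr1i3, Foxa1 and Foxa3 the intervals included 0. Genes were called at a Benjamini-Hochberg adjusted p under 0.05 in limma, over all 14506 genes, of which 1.98% were called in either direction, 0.558% higher and 1.42% lower.

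Of the members, 6 have a window in RefSeq's promoter table (build GRCr8), which spans 250 bases before to 50 after an annotated start, and Hnf4a has 2. The windows of Foxa2 and of the first Hnf4a start are shown because they hold the core letters bound by Onecut factors, ATTGAT or on the other strand ATCAAT, and Onecut1 is itself a member. Capitals mark those letters. Foxa2 lies on the minus strand, at chr3:155927459-155927758, and Hnf4a on the plus strand, at chr3:172605970-172606269.
Foxa2: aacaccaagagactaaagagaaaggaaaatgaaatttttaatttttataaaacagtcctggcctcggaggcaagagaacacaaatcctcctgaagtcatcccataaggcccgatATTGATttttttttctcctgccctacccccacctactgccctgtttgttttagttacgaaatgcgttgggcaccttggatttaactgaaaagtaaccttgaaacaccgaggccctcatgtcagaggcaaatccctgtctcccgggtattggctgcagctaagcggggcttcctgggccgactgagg
Hnf4a, first start: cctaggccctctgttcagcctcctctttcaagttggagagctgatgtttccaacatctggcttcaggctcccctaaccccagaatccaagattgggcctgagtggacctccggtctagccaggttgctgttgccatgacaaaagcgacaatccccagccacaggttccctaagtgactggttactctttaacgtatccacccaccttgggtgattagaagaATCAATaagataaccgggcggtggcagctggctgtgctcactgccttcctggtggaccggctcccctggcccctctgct
In Foxa2 the letters stand 136 to 131 bases before the start, and in Hnf4a 29 to 24 bases before it. Of all 33469 windows in the table, 8.06% hold them on either strand. Further letters were searched on both strands in the 7 windows of the members: TGTTTAC for forkhead factors, TTGCNNAA for C/EBP factors, AAGGTCA for Nr5a2 and CAAAGTCCA for Hnf4a. None of these stood in the 7 windows, and 3.78%, 10.6%, 4.61% and 0.391% of all windows hold them. Variants of the given letters were not searched, so sites spelled otherwise would be missed. The Cebpa, Foxa3, Nr5a2 and Nr1i3 windows and the second Hnf4a window held 0 of the searched letters. A match is a run of letters and was not tested as a binding site. The array values do not tell the 2 starts of Hnf4a apart. Whether these livers used the first start, which has the match, or the second, which has none, is therefore not shown.

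Foxa2 (probe set 10850521) read 5.03, 5.08, 4.92 and 5.31 log2 units in normoosmotic replicates 1 to 4. It read 5.42, 5.81, 5.95 and 6.07 in hypoosmotic replicates 1 to 4. The 4 hypoosmotic values all lay above the 4 normoosmotic ones, and the closest pair was hypoosmotic replicate 1 and normoosmotic replicate 4. The means were 5.09 ± 0.16 and 5.81 ± 0.28 (SD, n = 4 each), which is a log2 change of 0.73 ± 0.15 (SE). As a ratio, hypoosmotic over normoosmotic was 1.66 and its 95% interval ran from 1.33 to 2.06 (limma, adjusted p = 0.0237). The two-sided exact permutation p over the 35 splits of the 8 values was 0.0286, the smallest these arrays can give. The call was lost without any 1 of 5 arrays, with adjusted p-values of 0.0717, 0.0517 and 0.0831 without normoosmotic replicates 1, 2 and 3 and of 0.0801 and 0.0713 without hypoosmotic replicates 2 and 3, while the log2 change stayed between 0.64 and 0.86 whichever array was left out.

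Foxa1 (probe set 10890102), the forkhead relative of Foxa2 with which it shares functions in liver specification, read 4.83, 4.42, 4.52 and 5.21 in the normoosmotic livers. In the hypoosmotic livers it read 4.48, 4.48, 4.53 and 5.10. The groups overlapped throughout, and replicate 4 was the highest array of each group. The log2 change was −0.10 (95% interval −0.50 to 0.30; limma, adjusted p = 0.869), and it was 0.058 without normoosmotic replicate 4.

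Foxa3 (probe set 10719383) is a forkhead factor of adult liver that binds metabolic genes. It read 7.41, 7.28, 7.65 and 7.81 in normoosmotic livers and 7.43, 7.54, 7.29 and 7.79 in hypoosmotic ones. Its values covered nearly the same range in both groups. Its log2 change was −0.025, the interval ran from −0.34 to 0.29 (limma, adjusted p = 0.966), and the sign turned under 5 of 16 alternatives. The intervals of Foxa1 and Foxa3 both ended below the lower limit of 0.41 for Foxa2, but the difference between the 3 genes was not itself tested.

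**Figure D1:**
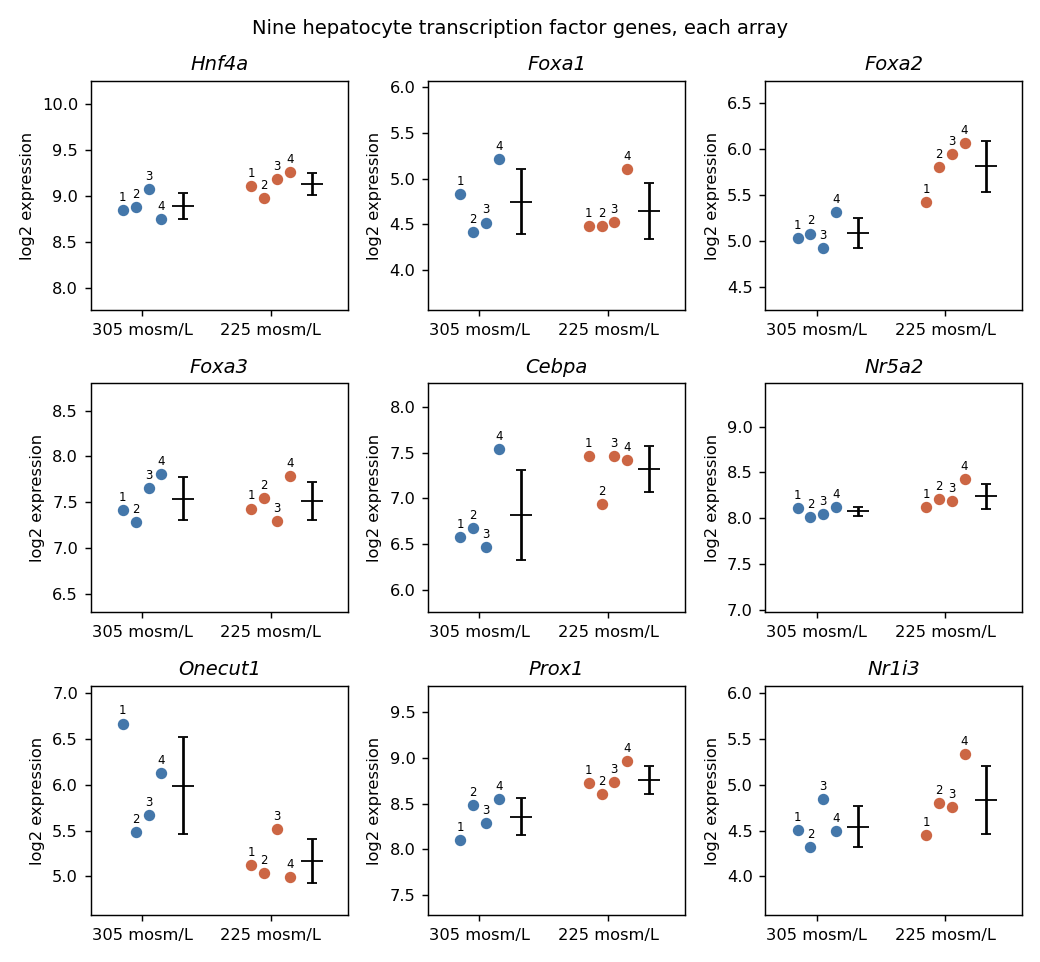
Log2 expression of the 9 members (vertical axes, each spanning the same number of log2 units) in the 4 normoosmotic (blue, 305 mosm/L) and 4 hypoosmotic (orange, 225 mosm/L) livers, with replicate numbers beside the points and mean ± SD in black. Foxa2 and Prox1 show no overlap between the groups, and Onecut1 has 1 normoosmotic array at 6.67, above the other 7.

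Onecut1 (probe set 10911570) read 6.67, 5.49, 5.67 and 6.13 in normoosmotic livers. It read 5.13, 5.04, 5.52 and 4.99 in hypoosmotic livers. Hypoosmotic replicate 3 lay just above normoosmotic replicate 2, and the remaining values did not cross. The means were 5.99 ± 0.53 and 5.17 ± 0.24 (SD, n = 4 each), which is a log2 change of −0.82 ± 0.22 (SE). The ratio was 0.566, and its 95% interval ran from 0.408 to 0.786. It did not pass over all genes (limma, adjusted p = 0.0756), and its exact permutation p was 0.0571. It passed, as a lower gene, without normoosmotic replicate 2 (adjusted p = 0.0421), and without normoosmotic replicate 1 the log2 change was −0.59.

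Over the 8 arrays the log2 values of Onecut1 and Foxa2 had a Pearson correlation of −0.63, and within the groups, after group means were removed, it was 0.12. Both values come from the same 8 libraries and are descriptions. In bulk tissue, fewer cells that carry a transcript and less RNA per cell cannot be told apart. Onecut1 and Foxa2 are also made by bile duct cells. Of 8 measured cholangiocyte markers, such as the keratin gene Krt19, 0 were called, and their mean level per array was 3.93 to 4.28 log2 units in normoosmotic and 4.02 to 4.22 in hypoosmotic livers. These levels were near the array medians of 4.05 to 4.16, and Cftr and Muc1 were among the dimmest 25% of genes. Part of the marker signal can be background, so the markers say little about bile duct content. Of the 8, 6 had positive and 2 negative log2 changes, with a median of 0.136 against 0.038 over all genes. The part of bile duct cells in the values of Onecut1 was not tested.

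Cebpa (probe set 10706131) read 6.58, 6.68, 6.47 and 7.54 in normoosmotic livers and 7.46, 6.94, 7.46 and 7.42 in hypoosmotic ones. Normoosmotic replicate 4 was the highest of all 8 values, and the other 3 normoosmotic values lay below every hypoosmotic one. The log2 change was 0.50 with a standard error of 0.21 and a 95% interval of 0.048 to 0.96, and it did not pass (limma, adjusted p = 0.285). Without normoosmotic replicate 4 it was 0.74 and passed (adjusted p = 0.0324).

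Prox1 (probe set 10770680) read 8.10, 8.49, 8.29 and 8.55 in normoosmotic livers and 8.72, 8.60, 8.74 and 8.97 in hypoosmotic ones. All 4 hypoosmotic values lay above the normoosmotic ones. The log2 change was 0.40 with a standard error of 0.13 and a 95% interval of 0.12 to 0.68. It did not pass over all genes (limma, adjusted p = 0.146), and over the 16 alternatives its adjusted p lay between 0.113 and 0.356. With Foxa2, Prox1 made 2 of 9 members whose groups did not overlap, where 8.27% of all genes were apart in this way. Prox1 is also a defining factor of lymphatic endothelium. Of 6 measured lymphatic endothelial markers 0 were called, and their mean level per array was 5.17 to 5.52 in normoosmotic and 5.27 to 5.41 in hypoosmotic livers. Lyve1, with a mean of 8.71 over the 8 arrays, raises this level and is also a sinusoidal endothelial marker. Pdpn (4.48) and Ccl21 (4.38) lay near the array medians of 4.05 to 4.16, and Nts was among the dimmest 25% of genes. The markers therefore say little about lymphatic content, and its part in the values of Prox1 was not tested.

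Among the nuclear receptors, Hnf4a (probe set 10842018) read 8.85, 8.88, 9.08 and 8.75 in normoosmotic livers and 9.11, 8.98, 9.18 and 9.26 in hypoosmotic ones. Only normoosmotic replicate 3 lay within the hypoosmotic range. The log2 change was 0.24 with a standard error of 0.11 and a 95% interval of −0.0056 to 0.49 (limma, adjusted p = 0.358), so that a rise of more than 1.41-fold lies outside the interval. Nr5a2 (probe set 10768116) was the tightest member under normoosmotic buffer, with 8.11, 8.01, 8.05 and 8.12. In hypoosmotic livers it read 8.12, 8.21, 8.19 and 8.43. Its log2 change was 0.17 with an interval of −0.07 to 0.40 (limma, adjusted p = 0.545).

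Nr1i3 (probe set 10765517), the receptor CAR, read 4.51, 4.32, 4.85 and 4.50 in normoosmotic livers and 4.45, 4.80, 4.76 and 5.34 in hypoosmotic ones. Hypoosmotic replicate 4 was the highest value, and the other 3 hypoosmotic values lay inside the normoosmotic range. The log2 change was 0.29 with an interval of −0.09 to 0.67 (limma, adjusted p = 0.499), and 0.13 without hypoosmotic replicate 4. Levels of different probe sets are not on a common scale, so the 9 members are not ranked by level.

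**Figure D2:**
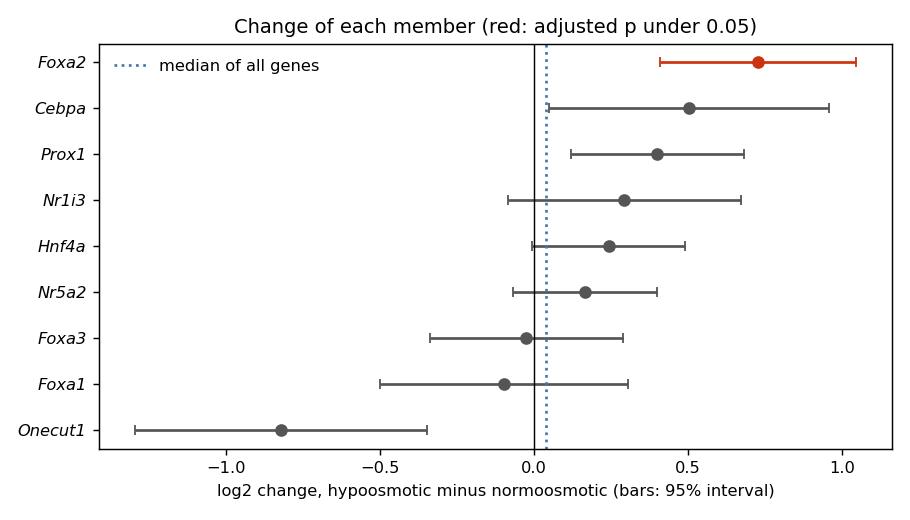
Log2 change of each member (horizontal axis, hypoosmotic minus normoosmotic) with its 95% interval from limma, sorted by size, with the median of all genes as a dotted line. Foxa2, in red, was the 1 member called, at 0.73, and Onecut1 stood at the other end, at −0.82.

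As a group, 6 members had positive and 3 had negative changes, between −0.82 and 0.73, with a median of 0.24 against 0.038 over all 14506 genes. An unadjusted p under 0.05 was reached by 4 members, 3 higher and 1 lower, where 14.6% of all genes reached it. Their median spread within groups was 0.231 log2 units (SD), against 0.186 over all genes. After group means were removed, the correlations of the 36 pairs of members over the 8 arrays ranged from −0.48 (Onecut1 with Prox1) to 0.83 (Foxa1 with Nr5a2). The next highest were 0.81 between Nr5a2 and Nr1i3 and 0.75 between Foxa1 and Foxa3. Pairs with Hnf4a lay between −0.28 and 0.61, and pairs with Onecut1 between −0.48 and 0.32. Replicate 4 carried the highest value of its group for Foxa1, Foxa2, Foxa3, Nr5a2 and Prox1 in both groups. This was not particular to the members. Replicate 4 also had the highest mean level in both groups for other liver transcription factors, coregulators and Hnf4a-dependent products. It did not for the lists of CAR and PXR targets, Nr5a2 targets, foetal genes and clock genes. The correlations of member pairs were not set against those of other genes.

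The livers differed in the levels of some genes of the circadian clock, which drives some hepatocyte regulators over the day. A clock score was taken as the mean of Bmal1 and Npas2 less the mean of Dbp and Per3, in log2 units. It was −2.81 and −3.38 in normoosmotic replicates 1 and 3, and 1.26 and 1.49 in replicates 2 and 4. In hypoosmotic livers it lay between −0.52 and 1.38. Outside the score, Clock, Per1, Per2, Tef and Nr1d2 also set normoosmotic replicates 1 and 3 apart from 2 and 4. Cry1, Cry2, Nfil3 and Nr1d1 did not. Over the 8 arrays, which include the difference between buffers, its correlation was 0.62 with Cebpa, 0.61 with Prox1, 0.39 with Foxa2, −0.48 with Onecut1, −0.14 with Hnf4a and −0.25 with Nr1i3. After group means were removed these were 0.54, 0.56, 0.15, −0.34, −0.65 and −0.52, in the same order. For Foxa1, Foxa3 and Nr5a2 the values without group means were 0.11, 0.03 and −0.18. With the score as a covariate, the log2 change of Foxa2 was 0.70 and its call was lost (limma, adjusted p = 0.0729). In that fit Onecut1 had a change of −0.73, Cebpa one of 0.36 and Prox1 one of 0.33, with adjusted p-values of 0.2, 0.57 and 0.356. Of 13 measured clock genes and D-box factors, which act on Nr1i3 among other genes, 1 was called, the repressor gene Nr1d2, which fell by 0.78 ± 0.17 (SE), and the list's median was −0.39. That call was lost with the score as a covariate and without normoosmotic replicate 1 or 3 or hypoosmotic replicate 1 or 2, with adjusted p-values up to 0.111 and log2 changes between −0.73 and −0.63. The genes of the score are themselves among the 13, so the fit with the score is not an independent check of clock genes.

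**Figure D3:**
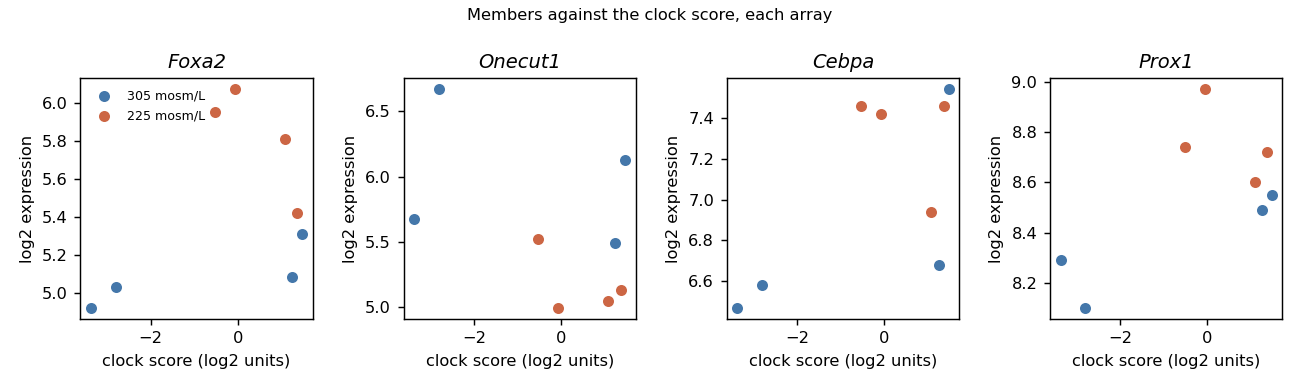
Log2 expression of Foxa2, Onecut1, Cebpa and Prox1 (vertical axes) against the clock score in log2 units (horizontal axes), 1 point per array, blue for 305 and orange for 225 mosm/L. The 2 normoosmotic arrays at −2.81 and −3.38 stand apart from the other 6.

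The network around the members was read from lists of known partners and targets. Of 25 other liver transcription factors 0 were called by limma, and 4 had an unadjusted p under 0.05 with a higher and 3 with a lower level. Over all genes, 14.6% reached such a p in either direction. Gata4, a zinc finger factor of early liver development, had a log2 change of 0.69 (adjusted p = 0.073) and Tbx3, a T-box factor of hepatoblasts, one of 0.58 (0.0956). Both passed as higher without normoosmotic replicate 4 (0.0221 and 0.0365), and Gata4 also after quantile normalization (0.0466) and with the replicate number as a block (0.0265). Nr1i2 (PXR), the closest relative of Nr1i3 and chosen after its values were seen, had a change of 0.51 (0.15), with no overlap between the groups. Its values were 7.34, 7.49, 7.85 and 7.71 in normoosmotic livers and 7.94, 7.94, 7.94 and 8.60 in hypoosmotic ones. The list's median was 0.08.

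Nuclear receptors act through coregulators, and of 16 measured 1 rose and 1 fell, where 1.98% of all genes were called in either direction. Med1, the Mediator subunit that nuclear receptors bind, read 7.33, 7.19, 7.29 and 7.27 in normoosmotic and 6.55, 6.34, 6.44 and 6.82 in hypoosmotic livers. The groups were far apart, and Med1 fell by 0.73 ± 0.12 (SE; limma, adjusted p = 0.00936), a call kept in all 16 alternatives. Ppargc1b, a coactivator of nuclear receptors, read 3.68, 3.89, 4.07 and 3.87 against 4.57, 4.45, 4.40 and 4.48. It rose by 0.60 ± 0.11 (adjusted p = 0.0193) and kept its call in 12 of 16 alternatives. The call was lost with the clock score as a covariate and without normoosmotic replicate 1 or hypoosmotic replicate 1 or 2, with adjusted p-values up to 0.0633 and log2 changes between 0.53 and 0.61. The acetyltransferase gene Crebbp and the methyltransferase gene Prmt1, chosen after their values were seen, had changes of −0.52 and −0.47 with no overlap between groups (adjusted p = 0.0698 and 0.0668). In 5 of the 16 coregulators the groups were apart, where 8.27% of all genes were, and the list's median was −0.16 against 0.038 over all genes. The list was chosen with earlier results of these data known, so these values are a description and not a test of the list.

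Genes that the members are known to control were read from 3 lists. Over all genes, 1.98% were called and 14.6% had an unadjusted p under 0.05. Of 21 products of hepatocytes that depend on Hnf4a, such as apolipoproteins and clotting factors, 0 were called and 1 had an unadjusted p under 0.05. This was G6pc1, the enzyme that releases glucose, with a log2 change of −0.91 (limma, adjusted p = 0.109). The remaining 20 lay between −0.15 for Apoa1, chosen after its values were seen, and 0.20 for Mttp, which loads lipid onto apolipoprotein B. The list's median was −0.015. Of 9 Nr5a2 targets 0 were called and 4 had an unadjusted p under 0.05, 3 higher and 1 lower. Gls2, the liver glutaminase, had a change of 0.40 (adjusted p = 0.15) and Nr0b2, a repressor of Nr5a2 and Hnf4a, one of −0.60 (0.19).

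Of 20 measured CAR and PXR targets, 1 rose and 1 fell. Abcc2, the canalicular export pump, read 11.07, 10.82, 10.85 and 10.76 in normoosmotic and 10.14, 10.11, 10.22 and 10.25 in hypoosmotic livers. It fell by 0.70 ± 0.11 (SE; limma, adjusted p = 0.00752) and kept its call in all 16 alternatives. Gadd45b, a stress gene that CAR induces, rose by 0.65 ± 0.14 (adjusted p = 0.0399) and kept it in 8. Gadd45b lost it with array medians subtracted, with the clock score as a covariate, and without normoosmotic replicate 1, 2 or 3 or hypoosmotic replicate 2, 3 or 4, with adjusted p-values up to 0.13 and log2 changes between 0.55 and 0.66. The classic CAR targets Cyp2b1 and Cyp2b2, near-identical genes whose probes may share signal, were chosen after their values were seen. They had changes of 0.54 and 0.55 with intervals of −0.76 to 1.83 and −0.51 to 1.62, so that neither a rise nor a fall could be resolved.

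**Figure D4:**
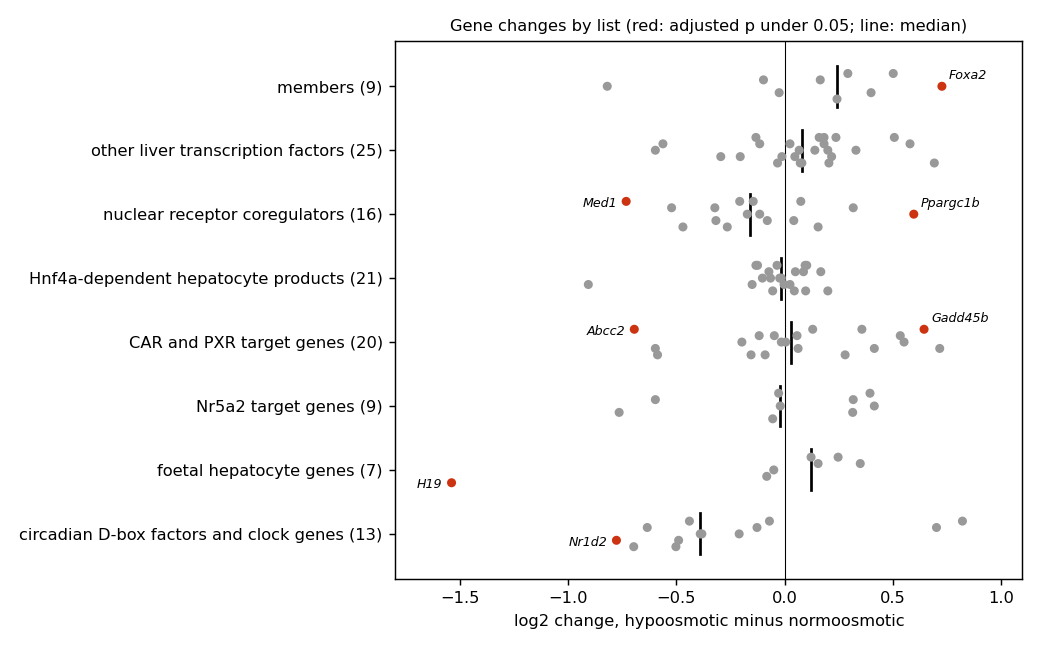
Log2 change (horizontal axis, hypoosmotic minus normoosmotic) of each measured gene of the members and of 7 lists, with the number of genes in brackets, the list's median as a black line and called genes in red. Red points are Foxa2 among the members and Med1, Ppargc1b, Abcc2, Gadd45b, H19 and Nr1d2 in the lists.

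The tissue label was checked against hepatocyte markers, which were bright on every array. The 11 measured hepatocyte markers, such as Alb and Ttr, had a mean level of 12.13 to 12.19 log2 units in normoosmotic and 12.03 to 12.21 in hypoosmotic livers, and 0 were called. Of 7 measured foetal hepatocyte genes, which the adult network keeps low, H19 fell by 1.54 ± 0.27 (SE; limma, adjusted p = 0.013), with a call that was lost without hypoosmotic replicate 2 (0.0558). The foetal plasma protein gene Afp, chosen after its values were seen, had a change of 0.12 with an interval of −0.21 to 0.46. None of the markers of Kupffer cells (10 measured), sinusoidal endothelium (7), stellate cells (9) or lymphocytes and neutrophils (10) was called. The lymphocyte and neutrophil markers had a mean level per array of 2.81 to 2.94 in normoosmotic and 2.75 to 3.02 in hypoosmotic livers. This lay below the array medians of 4.05 to 4.16, so their signal can be background and says little about these cells. Of the Kupffer cell markers, 9 had positive and 1 a negative log2 change, with a median of 0.116 against 0.038 over all genes. Positive and negative changes numbered 4 and 3 for sinusoidal endothelium and 3 and 6 for stellate cells.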

How the data were processed

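RNA from perfused rat livers was measured on 8 Affymetrix arrays, 4 per buffer. The authors' deposited table holds log2 expression values, read as such from their range (0.88 to 13.26), and per the submitters' processing notes the software was Transcriptome Analysis Console 4.0. How probes were summarised and arrays normalized is not stated. Of 27596 probe sets, 15310 had 1 gene symbol, 323 had several, and 11963 have no name here. Symbols were brought up to date by gene ID through RefSeq's GRCr8 table (15279 matched), and the brightest probe set per gene gave 14506 genes. Array medians lay between 4.05 and 4.16, and precision is limited by having 4 arrays per group. Calls of probe set detection were not used.

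The comparison used limma 3.58.1 under R 4.3.3 (lmFit, then eBayes, with a term for group alone and Benjamini-Hochberg adjustment over all genes), tested on simulated data. There it called 0.6%, 22.4%, 66.2% and 85.6% of genes given changes of 0.25, 0.5, 0.75 and 1 log2 units. A gene that was not called can therefore still have changed. The members and lists were chosen with earlier results of these data known. Named were the 9 members, up to 3 called genes per list or else the 2 with the smallest p, and the 3 genes most correlated with Hnf4a and with each member at an unadjusted p under 0.05. In 16 alternatives, the dimmest 25% of genes were left out, arrays were quantile normalized, centred on their medians or weighted, the prior was trended and robust, replicate number was a block, probe sets of a gene were averaged, the clock score was a covariate, or 1 of the 8 arrays was left out.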

Additional observations from a re-analysis of the deposited data

Results flagged for a closer look

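In 36 named genes each group of 4 arrays was checked for a value far from the others, 72 groups in all, of which chance marks about 1 in 20. The Foxa1 value of 5.10 in hypoosmotic replicate 4 stood above the other 3, which lay between 4.48 and 4.53. The Cebpa value of 6.94 in hypoosmotic replicate 2 stood below the other 3, which lay between 7.42 and 7.46. Pdcd7 read 5.71 in normoosmotic replicate 3, above the other 3 arrays of its group.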

How the results depend on the processing

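Over the 9 members and 16 alternatives, 130 of 144 log2 changes kept their direction and their side of the threshold. For an uncalled member this means that it stayed uncalled. Foxa2, the 1 called member, kept its call in 10 of 16 alternatives. Leaving out dim genes, the trended prior, the replicate block and the averaging of probe sets left each member's log2 change the same by construction. Only the adjusted p could move there. Throughout the 16 alternatives, 7 members kept their direction. The exceptions in direction were Foxa1, which ranged from −0.25 to 0.058 with each array left out (0.058 without normoosmotic replicate 4), and Foxa3, which was 0.015 after quantile normalization and ranged from −0.12 to 0.066 with each array left out. With the clock score as a covariate, 92 genes, 0 members, 1 coregulator, 1 CAR or PXR target and 0 clock genes were called. The score was made from genes of the clock list, so the count of clock genes there is not independent of it. After quantile normalization and with the replicate block 1 other liver transcription factor was called, and after subtraction of array medians 1 CAR or PXR target. With 1 array left out, the count of called genes ranged from 81 to 365 (287 with all arrays; 117 and 108 without normoosmotic replicates 1 and 3; 155, 81 and 156 without hypoosmotic replicates 1, 2 and 3). That of members ranged from 0 to 2, of other liver transcription factors from 0 to 2, of coregulators from 1 to 2, of CAR and PXR targets from 1 to 2, of foetal genes from 0 to 1 and of clock genes from 0 to 1.

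Same-numbered arrays of the 2 groups had deviations from their group means that correlated by 0.05, 0.03, 0.08 and 0.17 over all genes. For normoosmotic replicates 3 and 4 the best-correlated hypoosmotic array had the same number. For normoosmotic replicates 1 and 2 it was hypoosmotic replicates 4 and 3. Over all probe sets, replicate 4 of the 2 groups correlated by 0.9907, the highest of any 2 arrays. The main fit did not pair the livers by number, and a pairing was not excluded. With the replicate block, 256 genes, 1 member and 2 clock genes were called, and Foxa2 had an adjusted p of 0.0241. A low log2 value can be background on these arrays, and no member lay among the dimmest 25% of genes.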

Other observations

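The genes whose log2 values followed each member most closely over the 8 arrays were named by Pearson correlation, as a description. For Foxa2 they were Atg4b (0.973), the connexin gene Gjb2 (0.973) and the protocadherin gene Pcdh1 (0.966). Of these, Pcdh1 rose by 0.90 on the log2 scale (limma, adjusted p = 0.0125), a call kept in all 16 alternatives, and Gjb2 by 0.51 (0.0422), a call kept in 6 (up to 0.125 in the others). For Onecut1 they were Zc3h18 (0.962), the RNA-binding protein gene Hnrnpr (0.961) and the transporter gene Flvcr2 (0.961), and for Prox1 the Wnt coreceptor gene Lrp5 (0.973), Pttg1ip (0.969) and Bpgm (0.960). For Cebpa they were Prkab1 (0.980), a subunit of AMP-activated protein kinase, the inhibin subunit gene Inhbc (0.942) and Alad (0.928), an enzyme of haem synthesis. For Hnf4a they were Tbcel (0.958), Padi1 (0.958) and Pdcd7 (0.955). None of these neighbours of Onecut1, Prox1, Cebpa and Hnf4a was called. Among 14506 genes and 8 arrays, correlations of this size are read as a description of these livers.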
